A study of Homo sapiens with 8 samples.

Results

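The glycolysis and hypoxia genes described here are 36 genes chosen by name out of the 55765 gene names in the expression tables. They are 17 glycolytic enzymes, 5 genes of lactate transport and flux control, 13 genes that are known to be induced in low oxygen, and HIF1A. Each had 1 row in every table. Of the 36, 35 averaged 1 TPM or more across the libraries and were tested. EGLN3, an oxygen-sensing prolyl hydroxylase, stayed under that limit, with 0.0963 TPM in untreated NB4 and a listed 0 in the other 7 libraries.

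The libraries come from 2 established human myeloid leukaemia lines. NB4, an acute promyelocytic leukaemia line, has the fusion gene PML-RARA, and Kasumi-1 has RUNX1-RUNX1T1. Each line was sequenced untreated and after 6, 12 and 24 h in 40 uM chlorprothixene, an antipsychotic of the thioxanthene class, with 1 library per line and time. No vehicle is named and there is 1 untreated library per line, so drug and time in culture cannot be told apart, and no value has a replicate. Levels are TPM, a transcript's abundance scaled for its length and to 1 common total per library. Changes compare log2(TPM + 1) with that of the line's own untreated library, a scale that understates the change of low genes. In bulk RNA, fewer cells that express a gene and less of its RNA per cell cannot be told apart.

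Glycolysis splits glucose into pyruvate in the cytosol, and lactate dehydrogenase and the monocarboxylate transporters then turn pyruvate into lactate and carry it out of the cell. Leukaemic cells typically use the pathway heavily even with oxygen present. In low oxygen the HIF-1 factor, made of HIF1A and ARNT, is no longer marked for destruction by the EGLN prolyl hydroxylases. It then binds hypoxia response elements and induces most glycolytic genes. A wider set of its targets includes VEGFA, NDRG1, BNIP3, ADM and, of the EGLN enzymes, EGLN1 and EGLN3. PDK1, another target, shuts pyruvate out of mitochondrial oxidation by phosphorylating pyruvate dehydrogenase.

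The core of the hypoxia response element was looked up in the promoters because it holds the letters that HIF-1 reads in many glycolytic and hypoxia-induced genes. The sequences are the 250 bases before the transcription start in RefSeq's GRCh38.p14 annotation, all on the plus strand, 5′ to 3′. Capitals mark the letters ACGTG or GCGTG on either strand (CACGT or CACGC where read from the other strand). SLC16A3 (chr17:82228792-82229041), ENO2 (chr12:6914330-6914579) and ANKRD37 (chr4:185396591-185396840) are members whose level lay above untreated in all 6 treated libraries. PDK1 (chr2:172555840-172556089), LDHA (chr11:18394313-18394562) and PGK1 (chrX:78103998-78104247) are members that lay below untreated at all 3 times in Kasumi-1. Where a gene has several starts (5 for SLC16A3, 2 each for PDK1 and LDHA), the start with most ACGTG matches is shown, and the 6 genes were picked with their values known.
SLC16A3: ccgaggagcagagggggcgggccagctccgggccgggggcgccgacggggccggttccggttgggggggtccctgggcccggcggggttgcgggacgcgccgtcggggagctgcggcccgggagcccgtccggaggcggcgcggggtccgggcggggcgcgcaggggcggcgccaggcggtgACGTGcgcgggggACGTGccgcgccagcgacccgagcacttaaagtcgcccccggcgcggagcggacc
ENO2: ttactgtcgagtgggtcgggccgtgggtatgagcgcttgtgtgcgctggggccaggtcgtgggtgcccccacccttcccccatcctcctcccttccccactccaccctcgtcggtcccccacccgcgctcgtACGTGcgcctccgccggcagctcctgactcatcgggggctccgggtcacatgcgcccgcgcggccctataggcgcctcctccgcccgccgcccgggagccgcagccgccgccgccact
ANKRD37: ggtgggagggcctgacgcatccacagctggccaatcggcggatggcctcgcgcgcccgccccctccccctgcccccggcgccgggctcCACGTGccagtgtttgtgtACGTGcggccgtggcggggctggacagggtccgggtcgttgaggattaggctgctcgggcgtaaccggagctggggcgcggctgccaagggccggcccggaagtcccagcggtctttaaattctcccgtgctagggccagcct
PDK1: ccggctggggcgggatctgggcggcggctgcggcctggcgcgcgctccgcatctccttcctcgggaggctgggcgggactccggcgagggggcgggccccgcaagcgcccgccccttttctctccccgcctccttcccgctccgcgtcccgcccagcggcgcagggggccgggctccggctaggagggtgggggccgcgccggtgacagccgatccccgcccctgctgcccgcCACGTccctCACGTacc
LDHA: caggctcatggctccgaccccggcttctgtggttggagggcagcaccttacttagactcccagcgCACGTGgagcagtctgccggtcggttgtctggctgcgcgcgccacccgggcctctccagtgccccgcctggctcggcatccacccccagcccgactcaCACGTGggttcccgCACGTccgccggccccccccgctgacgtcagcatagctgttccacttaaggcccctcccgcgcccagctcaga
PGK1: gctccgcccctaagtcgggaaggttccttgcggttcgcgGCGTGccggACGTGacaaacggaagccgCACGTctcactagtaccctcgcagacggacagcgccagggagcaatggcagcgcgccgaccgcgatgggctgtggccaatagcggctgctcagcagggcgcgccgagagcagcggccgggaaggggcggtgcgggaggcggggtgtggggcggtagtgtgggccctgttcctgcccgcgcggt
All 6 hold ACGTG, but the genes were picked and their starts chosen by ACGTG matches. They therefore cannot compare members that stood higher with members that stood lower. ANKRD37 and LDHA also hold the palindrome CACGTG, which matches on both strands and is at the same time the E-box bound by MYC, MAX and MXI1. The RefSeq entries covered 31 of the 36 members, with 61 start windows of 300 bases (250 before and 50 after the start). SLC16A1, NDRG1, VEGFA, BNIP3L and HILPDA were not matched. Of the 31 members, 19 had ACGTG in at least 1 window. The same count was not made over all genes, so it cannot be read against the shares of windows that follow. ACGTG occurred in 23 of the 61 windows (37.7%), against 21.4% of all 35116 windows in the table. GCGTG occurred in 41.0% of the members' windows and 36.5% of all. For either core the shares were 62.2% of 37 enzyme windows, 75.0% of 12 windows of hypoxia-induced genes and 48.4% of all windows. Genes with several starts count more than once: 61 windows for 31 members, against 35116 windows for 27305 genes. The background was not matched for GC content or expression, so the gaps in share cannot be tied to the members as such. A match is a string of letters and not a measured binding site.

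Between 13358 and 14582 genes reached 1 TPM per library. Mitochondrially encoded RNA made up 5.04% to 6.71% of TPM in NB4 and 7.94% to 10.6% in Kasumi-1, except at 24 h in Kasumi-1, where it made up 17.1%. The Kasumi-1 and progenitor markers RUNX1T1, KIT and CD34 summed to 172 to 654 TPM in Kasumi-1 and to at most 0.340 TPM in NB4. The 8 myeloid markers had values above 0 in both lines, though ELANE reached at most 0.759 TPM in NB4. Their sum was 2315 to 6563 TPM in NB4 and between 13768 and 21120 TPM in Kasumi-1. Erythroid markers summed to at most 0.497 TPM, with HBB and HBA1 at 0 in every library. The 5 lymphoid markers summed to 4.83 to 21.3 TPM with MS4A1 at 0, and the 5 epithelial markers to 17.6 to 29.7 TPM with KRT19 at 0.

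No member passed the test of a response to treatment. limma was fitted to all 14650 tested genes, and a gene passed at a Benjamini-Hochberg adjusted p below 0.05. In the response shared by both lines (treated times averaged, less untreated, with line as a term) 0 of 35 members passed, where 4 genes of the whole table did (0.0273%). At an unadjusted p under 0.05, 5 members were higher (background 9.3%) and 6 lower (background 11.1%). The higher ones were ENO2, SLC16A3, NDRG1, VEGFA and ANKRD37. The lower ones were GPI, PGK1, LDHB, PDK1, BNIP3 and HILPDA. At 6, 12 and 24 h taken singly no gene of the table passed (0.0%). Within NB4 0 of 35 members passed beside 0.799% of all genes, and within Kasumi-1 0 of 35 beside 0.314%. Both came from 1 fit with times as repeats, whose error pools the times of both lines. Unadjusted, 5 members were higher and 2 lower in NB4 (background 8.3% and 6.86%), and 2 were higher and 8 lower in Kasumi-1 (background 8.18% and 12.0%). In the difference between the responses of the lines 0 of 35 members passed beside 0.13% of all genes, and 6 had an unadjusted p under 0.05 (background 10.6%). The p-values measure how alike the lines or the times were and not the spread between cultures.

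**Figure D1:**
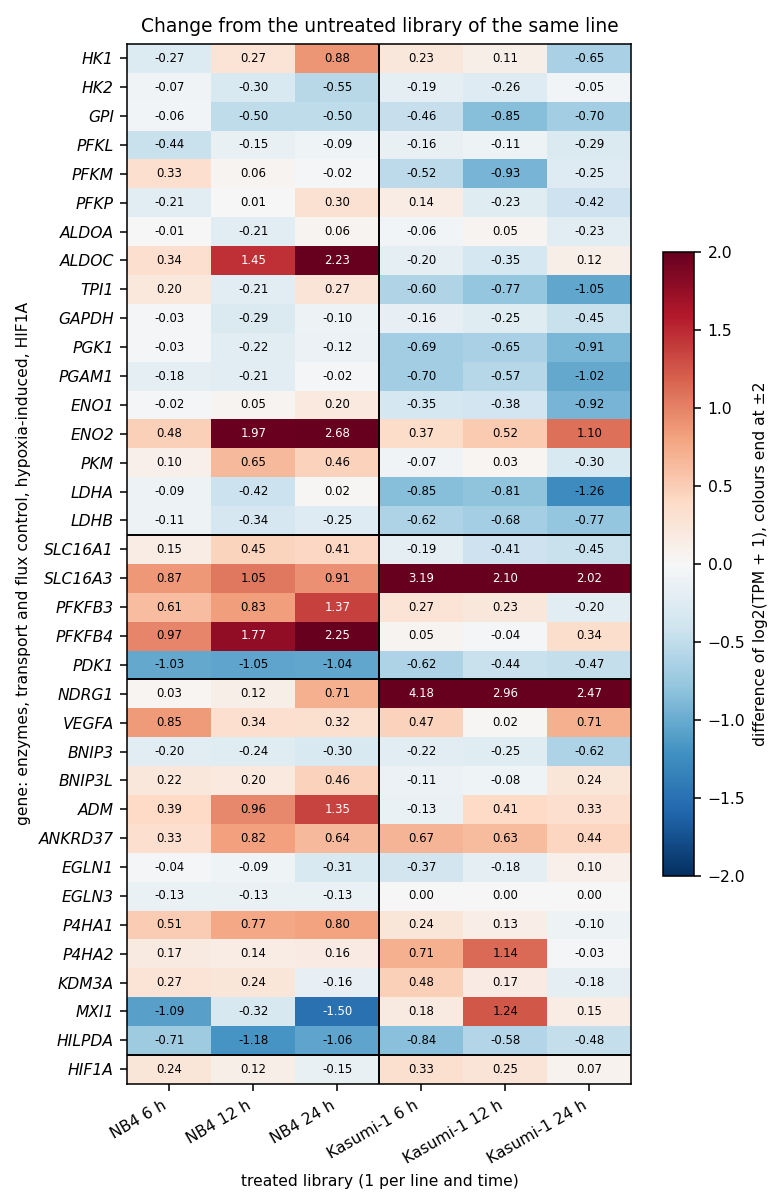
Difference of log2(TPM + 1) from the line's untreated library for all 36 members (rows, grouped by role) in the 6 treated libraries (columns), with colours ending at 2 in either direction. SLC16A3 and NDRG1 are the strongest reds in Kasumi-1, with 3.19 and 4.18 at 6 h, ENO2 (2.68), PFKFB4 (2.25) and ALDOC (2.23) at 24 h in NB4, and most enzymes are blue in Kasumi-1.

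The lines differed at the entry of the pathway. In the order untreated, 6, 12 and 24 h, HK1, the widely expressed hexokinase (chr10:71029740-71161638, hg19), stood at 3.38, 2.62, 4.29 and 7.06 TPM in NB4. In Kasumi-1 it stood at 231, 272, 251 and 148 TPM. HK2, the hexokinase that growth signals and hypoxia induce, stood at 113, 107, 91.2 and 76.6 TPM in NB4 and at 78.8, 69.1, 65.7 and 76.1 TPM in Kasumi-1. The NB4 and Kasumi-1 ranges of HK1 did not overlap, and its line difference over all times was -5.44 on the log2 scale (NB4 minus Kasumi-1, SE 0.31, limma adjusted p = 1.7e-05). HK1 thus supplied 2.38% to 8.43% of the summed hexokinase TPM in NB4 (HK1, HK2 and HK3) and 65.1% to 79.2% in Kasumi-1. HK2 differed by 0.40 (SE 0.13, limma adjusted p = 0.037), a call lost when any library but a 24 h one was left out (adjusted p = 0.0874 to 0.147).

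Over time the hexokinases differed too. HK2 in NB4 was lower at each later time, down to 0.68 of untreated at 24 h, while HK1 was 2.09 times its untreated level there. In Kasumi-1 HK1 was lowest at 24 h, at 0.638 of untreated. None of these changes passed the limma test.

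The upper pathway from glucose-6-phosphate to the trioses held 7 members. GPI, the isomerase of the next step, stood at 329, 315, 232 and 232 TPM in NB4 and at 361, 263, 200 and 222 TPM in Kasumi-1. Every treated library lay below its untreated one, with a shared change of -0.51 (SE 0.13, limma adjusted p = 0.12). Phosphofructokinase, the committed step, was mostly PFKL and PFKP in both lines. PFKL stood at 174, 128, 156 and 164 TPM in NB4 and at 181, 162, 168 and 147 TPM in Kasumi-1. PFKP, the platelet form, stood at 119, 103, 120 and 147 TPM in NB4 and at 95.2, 105, 80.8 and 71.0 TPM in Kasumi-1. PFKM, the muscle form, stayed between 2.87 and 6.36 TPM in all 8 libraries. PFKM overlaps SENP1 on the other strand by 1170 bases, and SENP1 had a mean of 26.7 TPM.

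Aldolase cleaves fructose bisphosphate, and its 2 members behaved differently in NB4. ALDOA, the main form, stood at 1381, 1375, 1194 and 1442 TPM in NB4 and at 470, 451, 488 and 401 TPM in Kasumi-1. ALDOC, the brain-type form (chr17:26900133-26904282, hg19), stood at 12.8, 16.4, 36.7 and 63.7 TPM in NB4 and at 25.7, 22.3, 20.0 and 28.1 TPM in Kasumi-1. ALDOC at 24 h in NB4 was 4.98 times untreated while ALDOA was 1.04 times, so ALDOC made up 0.917% of the aldolase TPM in untreated NB4 and 4.23% at 24 h. Its change within NB4 was 1.34 (SE 0.60, limma adjusted p = 0.35). ALDOC lies wholly inside another annotated gene on its strand, RP11-192H23.4, with a mean of 2.79 TPM beside its own 28.2 TPM. TPI1, which interconverts the trioses, stood at 1180, 1360, 1018 and 1419 TPM in NB4. In Kasumi-1 it stood at 1364, 897, 797 and 660 TPM, each treated library below the untreated one.

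From triose phosphate to pyruvate the members took different courses, and none passed the limma test. GAPDH stood at 6129, 6013, 5015 and 5708 TPM in NB4 and at 4945, 4423, 4167 and 3632 TPM in Kasumi-1. PGK1, the first ATP-forming enzyme, stood at 488, 478, 420 and 447 TPM in NB4 and at 362, 223, 230 and 191 TPM in Kasumi-1. PGAM1, the mutase, stood at 905, 798, 781 and 891 TPM in NB4 and at 512, 314, 344 and 253 TPM in Kasumi-1. All treated Kasumi-1 libraries lay below untreated for these 3 genes, by 0.65 to 0.91 on the log2 scale for PGK1 against 0.03 to 0.22 for NB4. Within Kasumi-1 PGK1 changed by -0.75 (SE 0.17, limma adjusted p = 0.088) and PGAM1 by -0.76 (SE 0.20, limma adjusted p = 0.11).

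Enolase again had a large and a small member. ENO1 stood at 3015, 2977, 3125 and 3463 TPM in NB4 and at 3269, 2571, 2504 and 1724 TPM in Kasumi-1. ENO2, known as the neuronal form (chr12:7022909-7032861, hg19), stood at 1.32, 2.22, 8.10 and 13.8 TPM in NB4 and at 3.23, 4.46, 5.05 and 8.04 TPM in Kasumi-1. ENO2 was higher at each later time in both lines, up to 10.5 times untreated in NB4 and 2.49 times in Kasumi-1. Even at 24 h it was 0.394% and 0.458% of the summed enolase TPM. The shared change of ENO2 was 1.18 (SE 0.37, limma adjusted p = 0.16). ENO2 overlaps LRRC23 on its own strand by 499 bases, with a mean of 2.52 TPM beside 5.78 TPM for ENO2. PKM, pyruvate kinase, stood at 1015, 1090, 1592 and 1396 TPM in NB4 and at 435, 415, 446 and 354 TPM in Kasumi-1, with no overlap between the lines.

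Of the 17 enzymes LDHA at 24 h in Kasumi-1 had the lowest ratio to untreated. LDHA, the form that favours lactate (chr11:18415935-18429972, hg19), stood at 1221, 1144, 911 and 1238 TPM in NB4 and at 866, 480, 495 and 362 TPM in Kasumi-1. LDHB, the form that favours pyruvate, stood at 4583, 4257, 3614 and 3845 TPM in NB4 and at 2020, 1310, 1264 and 1183 TPM in Kasumi-1. In Kasumi-1 LDHA at 24 h was 0.418 of untreated and LDHB 0.586. The ratio of LDHB to LDHA TPM was 3.75, 3.72, 3.97 and 3.11 in NB4 and came to 2.33, 2.73, 2.55 and 3.27 in Kasumi-1. Treated Kasumi-1 libraries were thus all above their untreated ratio. LDHA changed by -0.97 within Kasumi-1 (SE 0.25, limma adjusted p = 0.10) and by -0.17 within NB4 (SE 0.25, limma adjusted p = 0.83), and the difference of these responses was 0.80 (SE 0.35, limma adjusted p = 0.47).

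**Figure D2:**
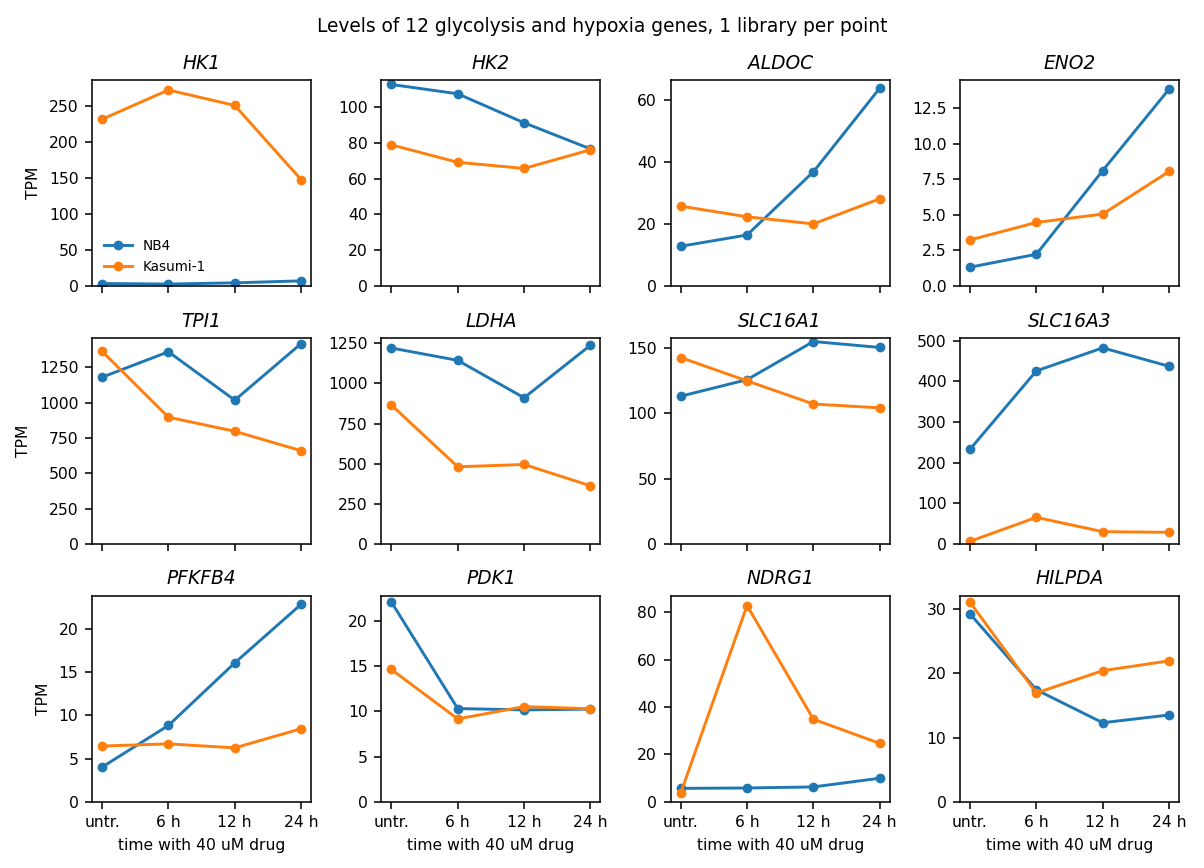
TPM (vertical axes from 0, each gene on its own scale) of 12 members untreated and at 6, 12 and 24 h in NB4 (blue) and Kasumi-1 (orange), 1 library per point. ALDOC, ENO2 and PFKFB4 reach their highest level at 24 h in NB4, NDRG1 peaks at 82.9 TPM at 6 h in Kasumi-1, and TPI1 and LDHA are lower in treated Kasumi-1.

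Counted over all 17 enzymes, 11 lay below untreated at all 3 times in Kasumi-1 and 7 did in NB4, where 36% and 32.2% of all tested genes did. The 11 were HK2, GPI, PFKL, PFKM, TPI1, GAPDH, PGK1, PGAM1, ENO1, LDHA and LDHB. At an unadjusted p under 0.05, 6 of the 17 were lower within Kasumi-1 (GPI, TPI1, PGK1, PGAM1, LDHA and LDHB), a share to be read beside 12.0% of all genes. Together the enzymes took 2.07%, 2.02%, 1.83% and 2.06% of all TPM in NB4 but 1.52%, 1.20%, 1.15% and 0.947% in Kasumi-1. The Kasumi-1 share was lowest in the library with 17.1% mitochondrial RNA. With TPM rescaled without mitochondrial genes and the 10 most abundant other genes, 10 of the 17 still lay below untreated at all 3 times (background 31.1%). Without the 24 h library the count was 12 of 17 (background 43.6%). Markers of the cells' maturation state moved in the same libraries, but not all in 1 direction. KIT stood at 450, 72.5, 115 and 192 TPM in Kasumi-1 and CD34 at 112, 18.3, 36.5 and 57.5 TPM. PRTN3, a granule protease, stood at 5971, 5050, 2539 and 1771 TPM in Kasumi-1, while NB4 had 1002, 703, 228 and 140 TPM of it. LYZ and AZU1 were higher in treated Kasumi-1: LYZ stood at 25.5, 34.1, 79.5 and 142 TPM and AZU1 at 1460, 2840, 2439 and 1883 TPM. SPI1 also lay above untreated at all 3 times there, while MPO stood at 9908, 11406, 9128 and 9340 TPM. CD33 lay below untreated at all 3 times in Kasumi-1, at 48.5, 18.3, 26.8 and 26.0 TPM. ELANE stood at 630, 1495, 703 and 416 TPM there and CEBPA at 13.7, 13.9, 11.4 and 10.7 TPM. In NB4 MPO stood at 4889, 3140, 2104 and 1528 TPM, while SPI1 stood at 222, 247, 327 and 313 TPM. The part of these markers in the enzyme levels was not tested. Rescaled, LDHA at 24 h was lower by 1.11 in place of 1.26, while TPI1 (0.90) and PGAM1 (0.87) no longer differed by 1. That rescaling moved the median of all genes by 0.11 at 24 h in Kasumi-1 and by at most 0.04 in the other libraries.

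**Figure D3:**
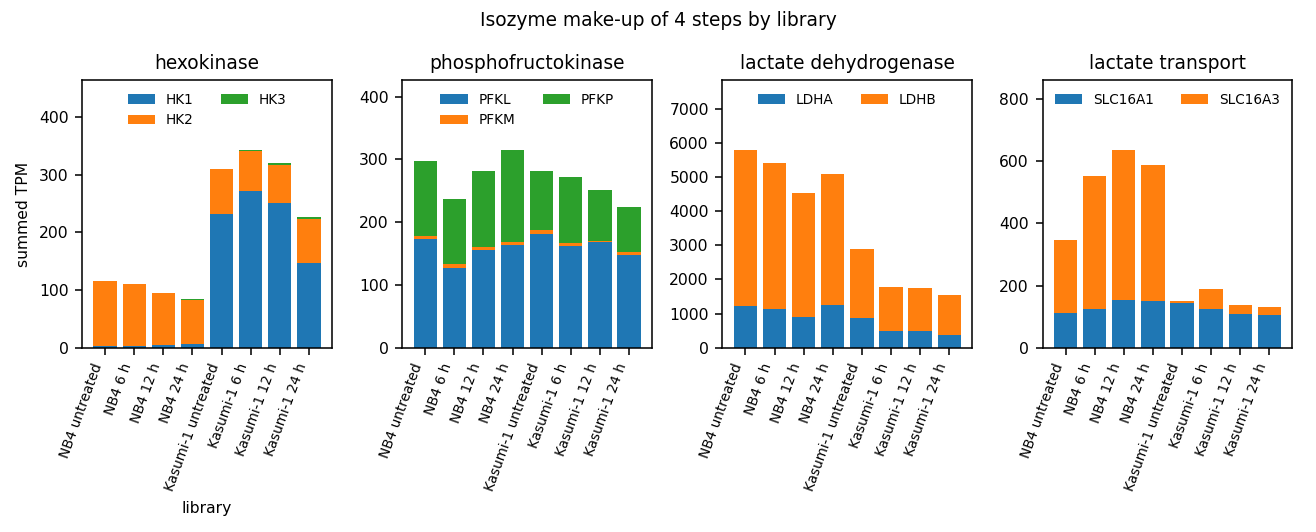
Summed TPM of the isozymes of 4 steps (stacked bars from 0, each step on its own scale) in the 8 libraries. HK1 makes up 65.1% to 79.2% of hexokinase in Kasumi-1 and at most 8.43% in NB4, and SLC16A3 makes up 67.3% to 77.2% of lactate transport in NB4 and at most 34.3% in Kasumi-1.

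Lactate leaves the cell through SLC16A1 and SLC16A3. SLC16A3, the low-affinity exporter known as MCT4 (chr17:80186273-80219005, hg19), stood at 233, 426, 482 and 437 TPM in NB4. In Kasumi-1 it stood at 6.27, 65.2, 30.1 and 28.4 TPM. Every treated library was above its untreated one, by 1.83 to 2.07 times in NB4 and by 10.4, 4.80 and 4.53 times in Kasumi-1. The shared change was 1.69 (SE 0.38, limma adjusted p = 0.10), and the change within Kasumi-1 was 2.43 (SE 0.41, limma adjusted p = 0.065). That last value passed when the 6 h library (limma adjusted p = 0.0208) or the 24 h library of Kasumi-1 (0.0439) was left out, and with TPM rescaled as above (0.0491). SLC16A3 shares 22107 bases with CSNK1D on the other strand (mean 122 TPM), and whether reads were assigned by strand is not given in the sources used here.

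SLC16A1, the high-affinity transporter MCT1, went opposite ways in the lines. It stood at 113, 126, 155 and 151 TPM in NB4, above untreated at all 3 times, and at 143, 125, 107 and 104 TPM in Kasumi-1, below untreated at all 3 times. This combination held for 6.7% of all genes, and the difference between the responses was 0.69 (SE 0.26, limma adjusted p = 0.42). SLC16A3 supplied 67.3% of the summed TPM of both transporters in untreated NB4 and 74.4% to 77.2% after treatment. In Kasumi-1 its share was 4.20% untreated and 34.3%, 21.9% and 21.4% at the 3 times. The glucose transporters at the other end went separate ways: SLC2A3 stood at 35.4, 79.0, 93.7 and 124 TPM in NB4 and at 76.0, 278, 133 and 84.4 TPM in Kasumi-1, whereas SLC2A1 lay below untreated in every treated library.

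PFKFB3 and PFKFB4 make fructose-2,6-bisphosphate, the activator of phosphofructokinase. PFKFB4 (chr3:48555117-48599448, hg19) stood at 4.01, 8.82, 16.1 and 22.8 TPM in NB4 and at 6.44, 6.70, 6.23 and 8.45 TPM in Kasumi-1. PFKFB3 stood at 8.72, 13.9, 16.3 and 24.1 TPM in NB4 and at 13.9, 17.0, 16.4 and 11.9 TPM in Kasumi-1. Both were higher at each later time in NB4, to 5.69 and 2.76 times untreated at 24 h, and stayed within 0.34 log2 of untreated in Kasumi-1. Within NB4 PFKFB4 changed by 1.66 (SE 0.44, limma adjusted p = 0.15) and PFKFB3 by 0.94 (SE 0.33, limma adjusted p = 0.25). The response difference for PFKFB4 was 1.55 (SE 0.63, limma adjusted p = 0.45). PFKFB4 overlaps UCN2 on its own strand by 289 bases, with a mean of 2.95 TPM beside 9.94 TPM for PFKFB4.

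PDK1 (chr2:173420101-173489823, hg19) was the member that was lower by at least 1 on the log2 scale at all 3 times in NB4, a pattern of 0.703% of all genes. It stood at 22.1, 10.3, 10.1 and 10.2 TPM in NB4 and at 14.6, 9.15, 10.5 and 10.3 TPM in Kasumi-1. The untreated libraries stood apart and the 6 treated ones of both lines lay within 9.15 to 10.5 TPM. The NB4 differences of 1.03 to 1.05 sit at the limit, and on the deposited FPKM they were 0.93 to 0.98. The change within NB4 was -1.04 (SE 0.20, limma adjusted p = 0.076), and the shared change -0.77 (SE 0.19, limma adjusted p = 0.12). It passed within NB4 when no filter on low values was used (limma adjusted p = 0.0216). In that setting its change was the same but its SE was 0.11, and 500 genes of the whole table passed in place of 117. PDK1 overlaps AC093818.1 on the other strand by 1224 bases, with a mean of 4.87 TPM beside 12.2 TPM for PDK1.

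Among the hypoxia-induced genes NDRG1, a stress-responsive gene also induced in differentiation, had the largest change of all members. Its level was 3.63, 82.9, 34.9 and 24.7 TPM in Kasumi-1, against 5.68, 5.84, 6.29 and 9.97 TPM in NB4. The Kasumi-1 level at 6 h was 22.9 times untreated and the one at 24 h still 6.80 times. Its change within Kasumi-1 was 3.20 (SE 0.59, limma adjusted p = 0.075), a call gained without the 24 h library (limma adjusted p = 0.0431). The response difference was -2.91 (SE 0.84, limma adjusted p = 0.32). NDRG1 and SLC16A3 were the members higher by at least 1 at all 3 times in Kasumi-1, as were 1.88% of all genes, and none was lower (0.655%). In NB4 none was higher at all 3 times by that margin (2.03%).

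VEGFA, the angiogenic growth factor, stood at 79.5, 144, 101 and 99.3 TPM in NB4 and at 128, 177, 130 and 210 TPM in Kasumi-1. ANKRD37, a small ankyrin-repeat gene, stood at 7.27, 9.41, 13.6 and 11.9 TPM in NB4 and at 5.37, 9.16, 8.87 and 7.63 TPM in Kasumi-1. ADM, which encodes the vasodilator adrenomedullin, stood at 1.95, 2.88, 4.74 and 6.52 TPM in NB4 and at 0.143, 0.0472, 0.514 and 0.436 TPM in Kasumi-1. VEGFA and ANKRD37 lay above untreated in all 6 treated libraries and ADM in all but the 6 h library of Kasumi-1, where both values are near 0. Shared changes were 0.45 for VEGFA (SE 0.18, limma adjusted p = 0.22) and 0.59 for ANKRD37 (SE 0.19, limma adjusted p = 0.16). ANKRD37 overlaps UFSP2 on the other strand by 1089 bases.

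Other targets were lower. HILPDA, a lipid droplet protein (chr7:128095903-128098472, hg19), stood at 29.2, 17.4, 12.3 and 13.5 TPM in NB4 and at 31.1, 16.9, 20.4 and 21.9 TPM in Kasumi-1. BNIP3, a mitophagy receptor, stood at 209, 182, 177 and 170 TPM in NB4 and at 65.7, 56.3, 55.3 and 42.5 TPM in Kasumi-1. Both lay below untreated in all 6 treated libraries, with shared changes of -0.81 (SE 0.20, limma adjusted p = 0.12) and -0.30 (SE 0.13, limma adjusted p = 0.24). BNIP3L, the related receptor, stood at 29.7, 34.8, 34.2 and 41.3 TPM in NB4, all above untreated, and between 44.7 and 57.4 TPM in Kasumi-1.

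MXI1, a MAX-binding repressor that opposes MYC, had the least regular course. It stood at 53.6, 24.6, 42.9 and 18.3 TPM in NB4 and at 20.1, 22.9, 48.7 and 22.4 TPM in Kasumi-1. It was below untreated at all 3 times in NB4 and above at all 3 times in Kasumi-1, as were 4.92% of all genes, and the response difference was -1.49 (SE 0.75, limma adjusted p = 0.54). The 12 h library was the highest treated one in both lines.

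The collagen prolyl hydroxylases P4HA1 and P4HA2 and the histone demethylase KDM3A are oxygenases that hypoxia induces. P4HA1 stood at 68.6, 98.0, 118 and 120 TPM in NB4 and at 74.6, 88.5, 81.8 and 69.6 TPM in Kasumi-1. P4HA2 stood at 0.0921, 0.233, 0.206 and 0.217 TPM in NB4 and at 7.57, 13.0, 17.9 and 7.41 TPM in Kasumi-1. KDM3A stood between 25.7 and 35.0 TPM in NB4 and between 40.2 and 63.9 TPM in Kasumi-1. In Kasumi-1 these 3 were above untreated at 6 and 12 h and below it at 24 h. P4HA1 changed by 0.69 within NB4 (SE 0.20, limma adjusted p = 0.18). P4HA2 overlaps SLC22A4 on the other strand by 873 bases, and SLC22A4 had a mean of 31.3 TPM.

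The oxygen sensor and the factor it controls changed little. EGLN1, the main HIF prolyl hydroxylase, stood at 14.8, 14.3, 13.9 and 11.7 TPM in NB4 and at 40.9, 31.5, 35.9 and 44.0 TPM in Kasumi-1. HIF1A stood at 56.3, 66.8, 61.4 and 50.6 TPM in NB4 and at 60.4, 76.0, 72.0 and 63.3 TPM in Kasumi-1. The shared change of HIF1A mRNA was 0.14 (SE 0.12, limma adjusted p = 0.53). HIF-1 is regulated mainly at the level of the protein, which these data do not measure.

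**Figure D4:**
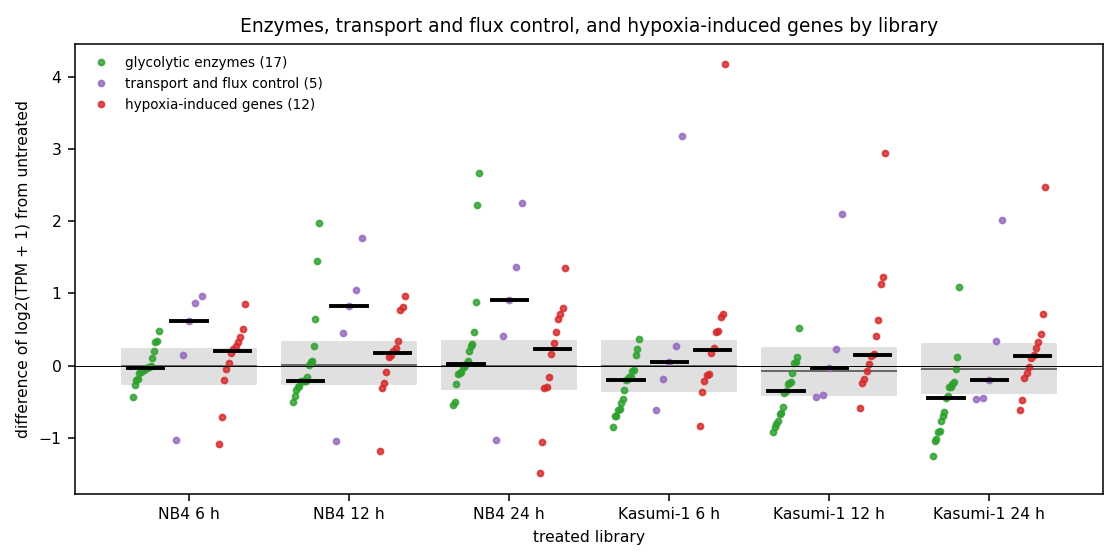
Difference of log2(TPM + 1) from untreated for each tested enzyme (17, green), transport and flux control gene (5, purple) and hypoxia-induced gene (12, red) in the 6 treated libraries. Black bars are list medians and grey bands the middle quartiles of all 14650 tested genes with their median. Enzyme medians lie at -0.20, -0.35 and -0.45 in Kasumi-1, and the medians of hypoxia-induced genes between 0.13 and 0.24 in every library.

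The enzymes and the hypoxia-induced genes are set side by side here as a description, and their values overlap in every library. The median enzyme differed from untreated by -0.03, -0.21 and 0.02 in NB4 and by -0.20, -0.35 and -0.45 in Kasumi-1 (6, 12 and 24 h in turn). For comparison, the median hypoxia-induced gene differed by 0.20, 0.17 and 0.24 in NB4 and by 0.21, 0.15 and 0.13 in Kasumi-1. Over all genes the medians lay between -0.08 and 0.01. P4HA2 entered the list through its Kasumi-1 level, since it stays at or below 0.233 TPM in NB4, and ADM through its NB4 level. Among the 11 hypoxia-induced genes that averaged 1 TPM within NB4 itself, a limit chosen after seeing the data, 6 lay above untreated at all 3 times (NDRG1, VEGFA, BNIP3L, ADM, ANKRD37 and P4HA1). Of all genes held to that limit 31.4% did, and 3 of the 17 enzymes did (ALDOC, ENO2 and PKM). The medians of those 11 genes were 0.22, 0.20 and 0.32 in NB4, and without ADM they were 0.24, 0.13 and 0.10 in Kasumi-1. With P4HA2 the NB4 count was 7 of 12, where 30.6% of all tested genes lay above. In Kasumi-1 2 of the 12 lay below untreated at all 3 times (BNIP3 and HILPDA) and 11 of the 17 enzymes did, beside 36% of all genes. Without the 24 h library these counts were 4 of 12 and 12 of 17, beside 43.6% of all genes. In Kasumi-1 4 of the 12 lay above untreated at all 3 times (NDRG1, VEGFA, ANKRD37 and MXI1), as did 28.2% of all genes. The difference between the lists was not tested, since genes of a list are not replicates. The 5 transport and flux control genes had medians of 0.61, 0.83 and 0.91 in NB4 and of 0.05, -0.04 and -0.20 in Kasumi-1.

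Changes of at least 1 on the log2 scale against the untreated library, which have no test, were few. In NB4 2 of 35 members passed that limit at 6 h (PDK1 and MXI1, both lower, with backgrounds of 3.06% higher and 2.27% lower). At 12 h 6 did, with ALDOC, ENO2, SLC16A3 and PFKFB4 higher (5.6%) and PDK1 and HILPDA lower (2.37%), and at 24 h 8 did. At 24 h these were ALDOC, ENO2, PFKFB3, PFKFB4 and ADM higher (background 6.51%) and PDK1, MXI1 and HILPDA lower (2.88%). In Kasumi-1 SLC16A3 and NDRG1 passed at 6 h (6.44% of all genes higher, 2.99% lower). With P4HA2 and MXI1 4 passed at 12 h (4.85% higher, 3.52% lower). At 24 h 6 passed, which were ENO2, SLC16A3 and NDRG1 higher (5.11%) and TPI1, PGAM1 and LDHA lower (3.88%). On the deposited FPKM the count at 24 h in Kasumi-1 was 3, because TPI1 (-0.95), PGAM1 (-0.92) and ENO2 (0.96) came to lie just inside the limit, and the counts in NB4 were 1, 5 and 6 at 6, 12 and 24 h. There PDK1 (-0.97, -0.98 and -0.93) came inside the limit at each time and HILPDA (-0.97) at 24 h. ENO2 was the enzyme past the limit in the same direction in both lines at 24 h. Counting any size, 5 members lay above untreated in all 6 treated libraries (ENO2, SLC16A3, NDRG1, VEGFA and ANKRD37), as did 12.9% of all genes. Another 10 lay below in all 6 (HK2, GPI, PFKL, GAPDH, PGK1, PGAM1, LDHB, PDK1, BNIP3 and HILPDA), as did 16.9% of all genes.

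Between the lines many members differed. Over all 8 libraries 18 of 35 members differed between the lines by limma's adjusted p, beside 55.4% of all genes, a share close to that of the members (51.4%). In NB4 11 were higher (27.5% of all genes), among them SLC16A3 (log2 difference 3.89, SE 0.33, limma adjusted p = 9.6e-05), BNIP3 (1.74, SE 0.11), PKM (1.61, SE 0.16), ALDOA (1.57, SE 0.13) and LDHB (1.52, SE 0.15). The others were HK2, GAPDH, PGK1, PGAM1, LDHA and ADM. In Kasumi-1 7 were higher (27.8% of all genes): HK1, P4HA2 (-3.31, SE 0.24), EGLN1 (-1.41, SE 0.15), NDRG1, VEGFA, BNIP3L and KDM3A. P4HA2 and ADM reached a mean of 1 TPM only through the line where each is high. Their line differences are therefore partly set by that filter and are a description only. Untreated, SLC16A3 was 37.1 times higher in NB4, and HK1 was 68.4 times higher in Kasumi-1. The calls of HK2, GAPDH and NDRG1 were lost under some alternatives, and 15 held under all that were run. GAPDH (limma adjusted p = 0.048) lost its call at a pseudocount of 0.1, with no filter, on FPKM, rescaled, and whichever library was left out. NDRG1 (limma adjusted p = 0.0497) lost it at a pseudocount of 0.1, with no filter and with a mean of at least 5 TPM. It also lost the call when any treated library was left out.

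Other genes of these pathways, from lists drawn up in the same way, gave the setting. None of the 62 tested passed a treatment contrast. Of 25 further hypoxia-induced genes 7 were higher and 1 lower in the shared response at an unadjusted p under 0.05 (backgrounds 9.3% and 11.1%). INSIG2, BHLHE40, BHLHE41, WSB1, RIOK3 and NARF were among the higher ones and FAM162A was lower. BHLHE40, a hypoxia-induced repressor, was the gene of that list higher by at least 1 at all 3 times in both lines, with 7.95, 18.8, 31.9 and 40.5 TPM in NB4 and levels of 3.71, 23.1, 9.48 and 12.8 TPM in Kasumi-1. In NB4 BHLHE41, INSIG2 and SLC16A6 were among those that also passed that limit at all 3 times. BHLHE41 stood at 0.725, 5.37, 13.8 and 20.6 TPM there and at no more than 0.333 TPM in Kasumi-1.

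The list on pyruvate entry into mitochondria holds carriers and dehydrogenase subunits as well as the kinases that block the step. Of its 11 tested genes 5 in NB4 (background 32.2%) and 7 in Kasumi-1 (background 36%) were below untreated at all 3 times, and the 7 include the blocking kinases PDK2 and PDK3. DLD, the dehydrogenase subunit shared by the mitochondrial complexes, was the 1 gene lower in the shared response at an unadjusted p under 0.05. Of 7 pentose phosphate enzymes PGD was higher and RPIA lower by the same measure. Of 9 HIF pathway components OS9 was higher and EGLN2 and CITED2 lower. CITED2, which competes with HIF1A for its coactivators, stood at 248, 152, 154 and 136 TPM in NB4 and at 394, 328, 369 and 363 TPM in Kasumi-1. Of 10 further glycolytic isozymes and glucose carriers ENO3 and SLC2A3 were higher.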

How the data were processed

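Total RNA of 8 samples was sequenced from libraries made with an Illumina TruSeq kit, per the labels' protocols. The submitters' processing notes name HISAT2, StringTie and the hg19 build, with versions, options and annotation not given in the sources used here. The deposited TPM and FPKM values are abundances scaled for length and for depth, and the deposited coverage column, named so in the file headers, is a signal used here as a sign of depth: its commonest ratio to FPKM ranged from 7.08 to 9.83 over the libraries. Counts were not used, so no interval from counting was computed. Values listed at 0 may be failed estimates.

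Rows were summed by gene name. The 14650 genes averaging 1 TPM or more were fitted as log2(TPM + 1) with limma 3.58.1 in R 4.3.3 (eBayes with trend, two-sided, Benjamini-Hochberg over all of them, threshold 0.05). The shared response and the line difference came from line plus time (3 residual degrees of freedom). Responses within a line and their difference came from line, treatment and their product with times as repeats (4 residual degrees of freedom). The fits were tested on simulated data in which a changed gene took the same step at all treated times in both lines. That setting has no response that differs by line or time, so it does not show how the fits behave for such genes. The members and lists were chosen with earlier results of these data known, and all 36 members are named, with up to 6 genes of another list that differed by at least 1 at all 3 times in a line and reached 5 TPM. The counts of genes above or below untreated at all 3 times were added after the values were seen. Alternatives were a pseudocount of 0.1, no filter or a mean of at least 5 TPM, FPKM, TPM rescaled without mitochondrial genes and the 10 most abundant other genes (members among those were kept in the table), other model terms, and leaving out each library. Named pseudogenes of a member summed to at most 1.95% of its mean TPM. Of the listed names, TIGAR and ERO1A were not matched. Single values of some listed genes are not reported here. Tables and plots were made with Python 3.11.15, pandas 2.3.3, numpy 2.4.6 and matplotlib 3.10.9.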

Additional observations from a re-analysis of the deposited data

How the results depend on the processing

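No pairing of replicate cultures was possible, because each line and time has 1 library and the labels carry no replicate numbers shared between groups. The shared response and the line difference did pair the lines by time, through the model terms for line and time. Where a left-out library left an arm with 1 sample, the lone sample was assumed to vary like the others. No member passed the shared response, the response at a single time or the response difference under any alternative run. Within NB4 2 members passed with no filter, PDK1 and EGLN3, the latter on a step from 0.0963 TPM to listed zeros. Within Kasumi-1 SLC16A3 alone (1 member) passed under the rescaling, and 0 to 2 members passed when a library was left out. Of the 18 line differences 15 kept their call under every alternative.

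Counts over all genes moved more. For the shared response the count of 4 was 0 at a pseudocount of 0.1, 0 without a filter, 27 with a mean of at least 5 TPM, 1 on FPKM, 18 rescaled, 0 with no line term and 133 with times as repeats, and 0 to 50 when a library was left out, the highest without untreated Kasumi-1. At 6 h it was 2 with at least 5 TPM, 1 on FPKM and 0 to 13 when a library was left out. At 12 h it was 1 on FPKM, 4 rescaled and 0 to 26, and at 24 h 1 on FPKM and 0 to 23. Within NB4 117 became 500 with no filter and 19 to 119 when a library was left out. Within Kasumi-1 46 was 70 at a pseudocount of 0.1, 559 without a filter and 6 to 229 when a library was left out, the highest without its 24 h library. The response difference of 19 became 528 with no filter and 0 to 31. On FPKM the members past a difference of 1 numbered 1, 5 and 6 in NB4 at 6, 12 and 24 h in place of 2, 6 and 8 (PDK1 lost at each time, HILPDA at 24 h), and 3 in place of 6 at 24 h in Kasumi-1.

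The median change of the hypoxia-induced genes within NB4, 0.22, was 0.32 with a pseudocount of 0.1, 0.16 with no filter or at least 5 TPM, 0.17 on FPKM and 0.18 to 0.25 when a library was left out. Within Kasumi-1, 0.18, it was 0.28 with a pseudocount of 0.1, 0.24 rescaled and 0.13 to 0.22. For transport and flux control in NB4 (0.94) it was 0.72 to 0.98. Hypoxia-induced genes below untreated at every time used in Kasumi-1 numbered 2 to 4 when a time was left out.

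Directions reversed only for members near 0 or with opposed lines. The shared change of SLC16A1 (-0.0068) was 0.0147 on FPKM and 0.0227 rescaled, and the line difference of PFKFB3 (0.01) was -0.08 rescaled. When a library was left out, shared changes ran from -0.18 to 0.37 for HK1, -0.57 to 0.12 for PFKM, -0.19 to 0.0581 for PFKP, -0.14 to 1.34 for ALDOC, -0.81 to 0.0853 for TPI1, -0.55 to 0.0778 for ENO1, -0.11 to 0.40 for PKM, -0.35 to 0.34 for SLC16A1 and -0.97 to 0.52 for MXI1. Line differences ran from -0.18 to 0.53 for ALDOC, -0.35 to 0.18 for ENO2, -0.30 to 0.22 for PFKFB3 and -0.12 to 0.43 for MXI1. When a line's untreated library was left out, the shared change became the other line's own change. Such values restate the responses of the 2 lines: for ALDOC, -0.14 was the Kasumi-1 change and 1.34 the NB4 change. The cause of the other moves was not tested.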
